A study of Mus musculus with 6 samples.

Results

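The SLC25 family holds the carriers that move metabolites, nucleotides, cofactors and ions across the inner mitochondrial membrane. Its members were taken as every symbol beginning with Slc25a and a number in any of the 6 deposited gene-by-cell tables, which gave 46 of 20279 symbols. The data were single-cell RNA counts from 6 libraries whose sample labels give spleen, long reads, female mice and an age of 10 weeks. No genotype or treatment was named, and the C57BL/6 strain is given only in the series text. The compared factor was the way barcoded cDNA was made, with 2 libraries (replicates 1 and 2) for each of 3 protocols. In the modified 5′ protocol, 1 µl of 10 mM dNTP was added at reverse transcription and again at cDNA amplification. Its reverse transcription extension lasted 2 h and its amplification extension 3 min. The standard 5′ protocol used 45 min and 1 min, and the third protocol was the 3′ kit, which barcodes transcripts at the poly(A) end. The 5′ kit barcodes them at the template-switch end.

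Most SLC25 proteins share a fold of repeated transmembrane units, and each exchanges or imports a small set of solutes. The ADP/ATP and phosphate carriers supply substrates to ATP synthase, so they serve nearly every cell. In red cell precursors, mitochondria make haem, which needs iron, glycine and reducing power brought in by dedicated members of the family.

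The sources conflict on these samples. The series text describes islets and short reads for a 3′ library, where the sample labels give spleen and long reads for all 6. If the platform did differ, it cannot be told apart from the 3′ protocol. Extraction text of replicate 1 describes spleen cells and lysis of red cells with ACK buffer, and that of replicate 2 describes pancreatic islets and removal of insulin cDNA, against its spleen label. The 9 pancreas markers checked summed to 3 to 7 counts in 5 libraries and to 85 counts (40.4 CPM, 7 of 9 markers) in modified 5′ replicate 2. Cells were kept from 200 detected genes upward if mitochondrial genes took no more than 20% of counts, which left 15578 of 20036 barcodes, and total counts per library ranged from 723341 to 2627253. Standard 5′ replicate 1 stood apart, with 861 cells (34.0% of its barcodes) and a median of 332 counts per cell. Any 2 libraries shared at most 16 cell barcodes. Nothing in the labels ties the 2 libraries of a protocol to different mice, so each p-value reflects library-to-library spread that could be technical. Haemoglobin genes took 3.92% to 6.84% of kept counts in replicate 1 and 0.0392% to 0.128% in replicate 2. The replicate number therefore also separates libraries with many from libraries with few red cell transcripts.

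Cells were assigned to 4 classes by raw counts of marker genes, none of them an SLC25 gene. A class needed at least 2 counts of its own markers and at most 1 count of every other class's markers. This gave 8365 B cells, 3621 T cells, 355 myeloid cells and 239 erythroid cells. Markers that the gate did not use were high in their own class. The 5 further T markers summed to 4034 to 7645 CPM in gated T cells, and the 4 further B markers to 19696 to 49891 CPM in gated B cells. The 6 further erythroid markers, haemoglobin genes among them, summed to 12956 to 455404 CPM in gated erythroid cells. The 5 further myeloid markers summed to 12991 to 22768 CPM in gated myeloid cells. Myeloid cells were the least pure class, since 6 neutrophil markers summed there to 21916 CPM in modified 5′ replicate 1, 13134 CPM in 3′ replicate 2 and 0 CPM in standard 5′ replicate 1.

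Promoter sequences are shown for Slc25a21, Slc25a38 and Slc25a39, which moved together between erythroid and B cells in the results that follow. They run from 250 bases before to 50 after the transcript start and come from RefSeq on GRCm38.p6, in which 35 of the 46 members had an entry, with 45 promoters in all. Slc25a37 and Slc25a51 are named without a sequence. Slc25a21 has 2 listed starts on the minus strand, chr12:57160594-57160893 (inner) and chr12:57197423-57197722 (outer). Slc25a38 lies on the plus strand at chr9:120110132-120110431 and Slc25a39 on the minus strand at chr11:102407468-102407767. Lower case letters carry no meaning, and capitals mark the motif CCACACCC, a core bound by erythroid Krüppel-like factors.
Slc25a21 inner start: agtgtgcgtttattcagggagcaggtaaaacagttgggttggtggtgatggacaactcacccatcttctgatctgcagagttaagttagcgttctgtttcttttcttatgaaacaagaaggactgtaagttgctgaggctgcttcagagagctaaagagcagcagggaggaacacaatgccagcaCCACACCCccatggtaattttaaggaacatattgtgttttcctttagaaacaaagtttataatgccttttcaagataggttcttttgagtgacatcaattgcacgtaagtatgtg
Slc25a21 outer start: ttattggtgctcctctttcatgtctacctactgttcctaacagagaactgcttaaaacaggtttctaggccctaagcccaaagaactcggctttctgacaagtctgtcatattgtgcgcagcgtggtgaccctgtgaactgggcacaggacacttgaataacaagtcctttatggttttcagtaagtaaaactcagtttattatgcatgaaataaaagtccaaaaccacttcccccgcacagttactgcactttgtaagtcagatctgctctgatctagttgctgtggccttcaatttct
Slc25a38: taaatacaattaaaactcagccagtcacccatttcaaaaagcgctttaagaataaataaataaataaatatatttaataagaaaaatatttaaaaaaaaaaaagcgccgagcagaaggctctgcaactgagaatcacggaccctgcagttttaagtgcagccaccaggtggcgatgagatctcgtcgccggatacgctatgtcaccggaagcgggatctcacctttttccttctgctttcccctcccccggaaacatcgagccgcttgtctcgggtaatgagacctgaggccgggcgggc
Slc25a39: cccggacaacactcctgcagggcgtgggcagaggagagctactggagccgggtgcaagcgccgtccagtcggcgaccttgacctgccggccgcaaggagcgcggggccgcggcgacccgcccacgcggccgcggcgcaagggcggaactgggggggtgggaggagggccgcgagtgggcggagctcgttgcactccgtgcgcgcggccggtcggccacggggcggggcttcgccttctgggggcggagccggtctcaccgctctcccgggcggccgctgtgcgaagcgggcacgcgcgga
Only the inner Slc25a21 window held CCACACCC on either strand, with its first base at position -65 from the start. The letters occurred in 3.56% of 32851 mouse promoters of the same length and in 4 of the 45 member promoters (8.89%). A GATA core, AGATAA on either strand, was in none of the 4 windows, in 11.18% of all promoters and in 3 of the 45 (6.67%). The motifs do not overlap each other. G and C made up 77.3% of the Slc25a39 window and 45.3% of the Slc25a38 window, against 41.7% and 43.0% of the Slc25a21 windows.

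A few housekeeping members dominated the family. Summed over kept cells, the 46 members received 20123 counts, of which Slc25a3 took 30.0% and Slc25a5 23.6%. Slc25a3 encodes the phosphate carrier and Slc25a5 an ADP/ATP carrier. Slc25a37 (5.80%), Slc25a4 (4.56%), Slc25a11 (4.32%) and Slc25a39 (3.15%) came next. Per kb of transcript, Slc25a5 and Slc25a3 stood at 416 and 409 CPM per kb, against 55.3 for Slc25a11, 51.5 for Slc25a39, 41.7 for Slc25a4 and 33.3 for Slc25a37. The length was that of the longest annotated coding transcript. Both kits barcode 1 end of a transcript, and whether counts grow with length was not tested. At the other end, 13 members averaged under 5 CPM over the 6 libraries, and 37 had counts in every library. The filter on low counts left 34 members for the protocol tests. The 12 it removed had from 1 count (Slc25a41, an ATP-Mg/phosphate carrier relative) to 40 counts (Slc25a13, the second aspartate/glutamate carrier, and Slc25a24, an ATP-Mg/phosphate carrier) over all libraries.

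In scaled counts the family as a whole stood higher in 5′ libraries. CPM values here are scaled by TMM factors, edgeR's library normalization. The summed level was 2116 and 2188 CPM in modified 5′ replicates 1 and 2, 2848 and 2476 CPM in standard 5′, and 1695 and 1619 CPM in 3′. No protocol's pair of libraries overlapped another's in these scaled values. Unscaled, the family took 0.253% and 0.226% of kept counts in standard 5′ replicates 1 and 2. It took 0.191% and 0.205% in modified 5′ and 0.195% and 0.194% in 3′, and these pairs overlapped. The phosphate and adenine nucleotide group set most of the scaled order, at 1257 and 1418 CPM in modified 5′, 1668 and 1629 CPM in standard 5′, and 769 and 988 CPM in 3′. Iron, haem and glutathione carriers followed the replicate instead. Their sum was 311, 501 and 432 CPM in the modified 5′, standard 5′ and 3′ libraries of replicate 1, and 174, 197 and 126 CPM in those of replicate 2. These sums cover all cell types, so fewer cells of a type and less RNA per cell cannot be told apart in them.

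**Figure D1:**
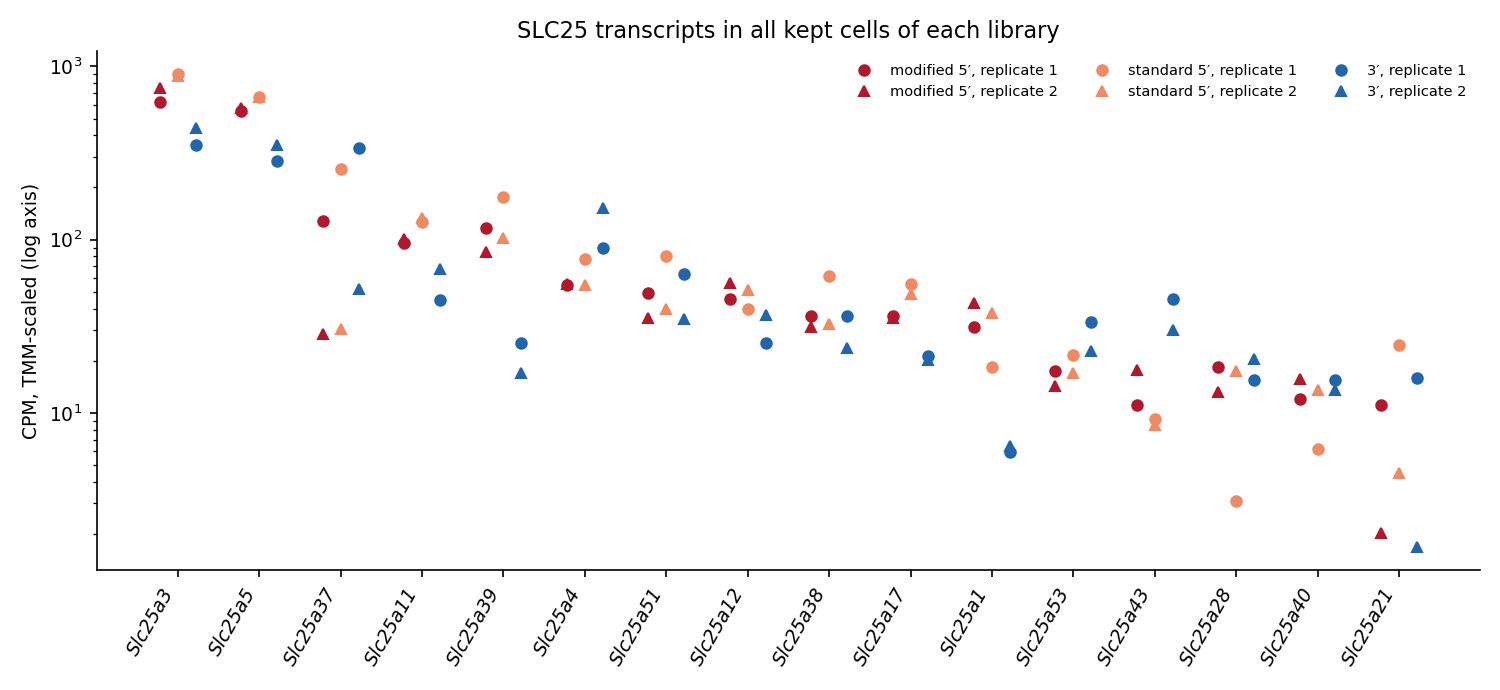
CPM scaled by TMM (log axis) of 16 members named with values, in all kept cells. Each point is 1 library, coloured by protocol, with circles for replicate 1 and triangles for replicate 2. Slc25a39 and Slc25a1 separate the 5′ libraries from the 3′ libraries, while Slc25a37 and Slc25a21 separate the replicates.

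The first comparison, standard 5′ over 3′, asked how the end of the transcript that carries the barcode bears on the counts of each carrier. Fits over the 6 libraries had the protocol as their only term, without the replicate. They used edgeR's quasi-likelihood test and Benjamini-Hochberg adjustment over all 11546 genes tested. Of the 34 members tested, 6 were higher and 2 lower in standard 5′ at an adjusted p of 0.05, against 23.3% of all genes called in either direction, 12.5% higher and 10.8% lower. The members' median log2 fold change was 0.13, and that of all genes was -0.01. The share of members called was close to that of all genes.

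Among the iron, haem and glutathione carriers, Slc25a39 had the largest fold change of the 34 members tested over all kept cells. This glutathione importer measured 175 and 103 CPM in standard 5′, against 25.4 and 16.9 CPM in 3′, a log2 fold change of 2.66 ± 0.33 (SE, edgeR adjusted p = 0.00168). Its level in every 5′ library was above that in every 3′ library, and the difference within replicates 1 and 2 was 2.74 and 2.54. The difference was also present within gated B cells (2.74 ± 0.33, edgeR adjusted p = 6.17e-12) and gated T cells (3.14 ± 0.51, edgeR adjusted p = 3.92e-05). Slc25a40, its close paralogue, measured 6.14 and 13.6 CPM in standard 5′, against 15.4 and 13.5 CPM in 3′, and did not pass. The first 500 bases of the Slc25a40 transcript share 30.2% of their 31-base words with other genes, against 0% for Slc25a39.

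The mitoferrins import iron. Slc25a37 (mitoferrin-1) measured 255 and 30.5 CPM in standard 5′, against 340 and 51.6 CPM in 3′. Its replicates lay further apart than the protocols, and it did not pass over all cells (-0.64 ± 1.04). With the replicate as a block it was lower (-0.57 ± 0.22, edgeR adjusted p = 0.0398), as it was in B cells alone (-1.16 ± 0.32, edgeR adjusted p = 0.00245). The first 500 bases of its transcript share 75.1% of their 31-base words with other genes, Gm16867 first among them, and the last 500 share 0%. The 5′ counts of Slc25a37 are uncertain for that reason. Slc25a28 (mitoferrin-2) measured 3.07 and 17.5 CPM in standard 5′, against 15.4 and 20.6 CPM in 3′, and did not pass. Slc25a38, the glycine carrier that feeds haem synthesis, measured 61.4 and 32.8 CPM in standard 5′, against 36.3 and 23.6 CPM in 3′, and did not pass either.

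In the phosphate and adenine nucleotide group, 2 of 5 tested members rose in standard 5′ and 1 fell. Slc25a3 measured 900.2 and 877 CPM in standard 5′, against 350.0 and 444 CPM in 3′ (log2 fold change 1.16 ± 0.21, edgeR adjusted p = 0.00629). Slc25a5 measured 664 and 668 CPM in standard 5′, against 283 and 354 CPM in 3′ (1.06 ± 0.20, edgeR adjusted p = 0.00736). Neither gene's libraries overlapped between these protocols. Slc25a5 shares 67.1% of its 31-base words with 13 other genes, Slc25a5-ps first among them, so its counts are uncertain. Slc25a4, the ADP/ATP carrier typical of heart and muscle, went the other way, with 76.8 and 54.8 CPM in standard 5′ against 89.0 and 151 CPM in 3′ (-0.95 ± 0.29, edgeR adjusted p = 0.0435). That call did not hold with DESeq2 (adjusted p = 0.0531) or without 3′ replicate 2 (-0.50, edgeR adjusted p = 0.187). Within gated T cells Slc25a4 was lower in standard 5′ by a larger amount, -1.64 ± 0.33 (edgeR adjusted p = 6.92e-04), and within B cells the value was -0.92 ± 0.30 (edgeR adjusted p = 0.0135). The T minus B difference of these values was -0.56 ± 0.36 and did not pass (edgeR adjusted p = 1).

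Carboxylate carriers were higher in standard 5′ where they passed. Slc25a1, which exports citrate for fatty acid synthesis, measured 18.4 and 37.8 CPM in standard 5′, against 5.97 and 6.41 CPM in 3′ (2.33 ± 0.39, edgeR adjusted p = 0.00502). Slc25a11, the 2-oxoglutarate/malate carrier of the malate-aspartate shuttle, measured 126 and 133 CPM in standard 5′, against 44.8 and 67.8 CPM in 3′ (1.20 ± 0.24, edgeR adjusted p = 0.00915). Exons of Slc25a11 overlap those of Rnf167 on the other strand, which had 1777 counts, and use of strand in counting is not given in the sources used here. Within T cells the Slc25a11 difference was 0.75 ± 0.36 and did not pass (edgeR adjusted p = 0.135). Slc25a12, the aspartate/glutamate carrier of the same shuttle, measured 39.9 and 51.4 CPM in standard 5′ against 25.4 and 36.8 CPM in 3′, and did not pass. The dicarboxylate carrier Slc25a10 did not pass over all cells without the replicate block (1.54 ± 0.53, edgeR adjusted p = 0.0591). It did with the block (1.51 ± 0.57, edgeR adjusted p = 0.0379). Within B cells the value was 3.34 ± 0.86, on 28 counts over the 6 libraries. No p-value is given there, since Slc25a10 passed the filter on low counts in B cells only through its 5′ level.

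Of 11 tested amino acid, carnitine and cofactor carriers, 1 passed. Slc25a17, a carrier of CoA and related cofactors in the peroxisome, measured 55.3 and 48.6 CPM in standard 5′, against 21.4 and 20.2 CPM in 3′ (1.29 ± 0.24, edgeR adjusted p = 0.00747). It passed within T cells (1.83 ± 0.45, edgeR adjusted p = 0.00400) and not within B cells (0.83 ± 0.36, edgeR adjusted p = 0.0658). The T minus B difference of these values was 1.12 ± 0.51 and did not pass (edgeR adjusted p = 1). Slc25a51, which imports NAD+, measured 79.9 and 39.5 CPM in standard 5′, against 63.6 and 34.7 CPM in 3′, and did not pass.

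Among relatives of the uncoupling proteins and members of unsettled role, Slc25a43 was lower in standard 5′. It measured 9.22 and 8.47 CPM there, against 45.2 and 30.0 CPM in 3′ (-2.10 ± 0.41, edgeR adjusted p = 0.0083). The fall was similar within B cells (-2.29 ± 0.50, edgeR adjusted p = 1.41e-04) and T cells (-2.24 ± 0.68). No p-value is given for T cells, since Slc25a43 passed the filter on low counts there only through its 3′ level. Slc25a53 measured 21.5 and 16.9 CPM in standard 5′, against 33.3 and 22.6 CPM in 3′, and did not pass.

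Within B cells, 10 of 26 tested members passed, 7 higher and 3 lower, against 31.9% of all genes there, 14.5% higher and 17.4% lower. Within T cells, 7 of 22 passed, 5 higher and 2 lower, against 19.9% of all genes, 8.63% higher and 11.2% lower. These counts include Slc25a10 (B cells) and Slc25a43 (T cells), each of which passed the filter on low counts only where its level was higher. No member had a protocol difference that was called as unequal between T and B cells (0 of 26 members, 11 of 8948 genes, edgeR adjusted p at most 0.05), and Slc25a17 was the 1 member with an unadjusted p under 0.05. With gated erythroid cells left out of all kept cells, 13 of 33 members passed, 8 higher and 5 lower, while the share of all genes called was 34.5%, 16.2% higher and 18.3% lower. The added calls included Slc25a10, Slc25a23, Slc25a36 and Slc25a37, the last at -1.50 ± 0.36 (edgeR adjusted p = 0.00359). With the replicate as a block 12 of 34 members passed, 8 higher and 4 lower, and the share of all genes called was 35.7%, 19.3% higher and 16.5% lower. Most calls rested on standard 5′ replicate 2, the deeper library of its pair. Without it only Slc25a39 passed, while without standard 5′ replicate 1 there were 8 calls.

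**Figure D2:**
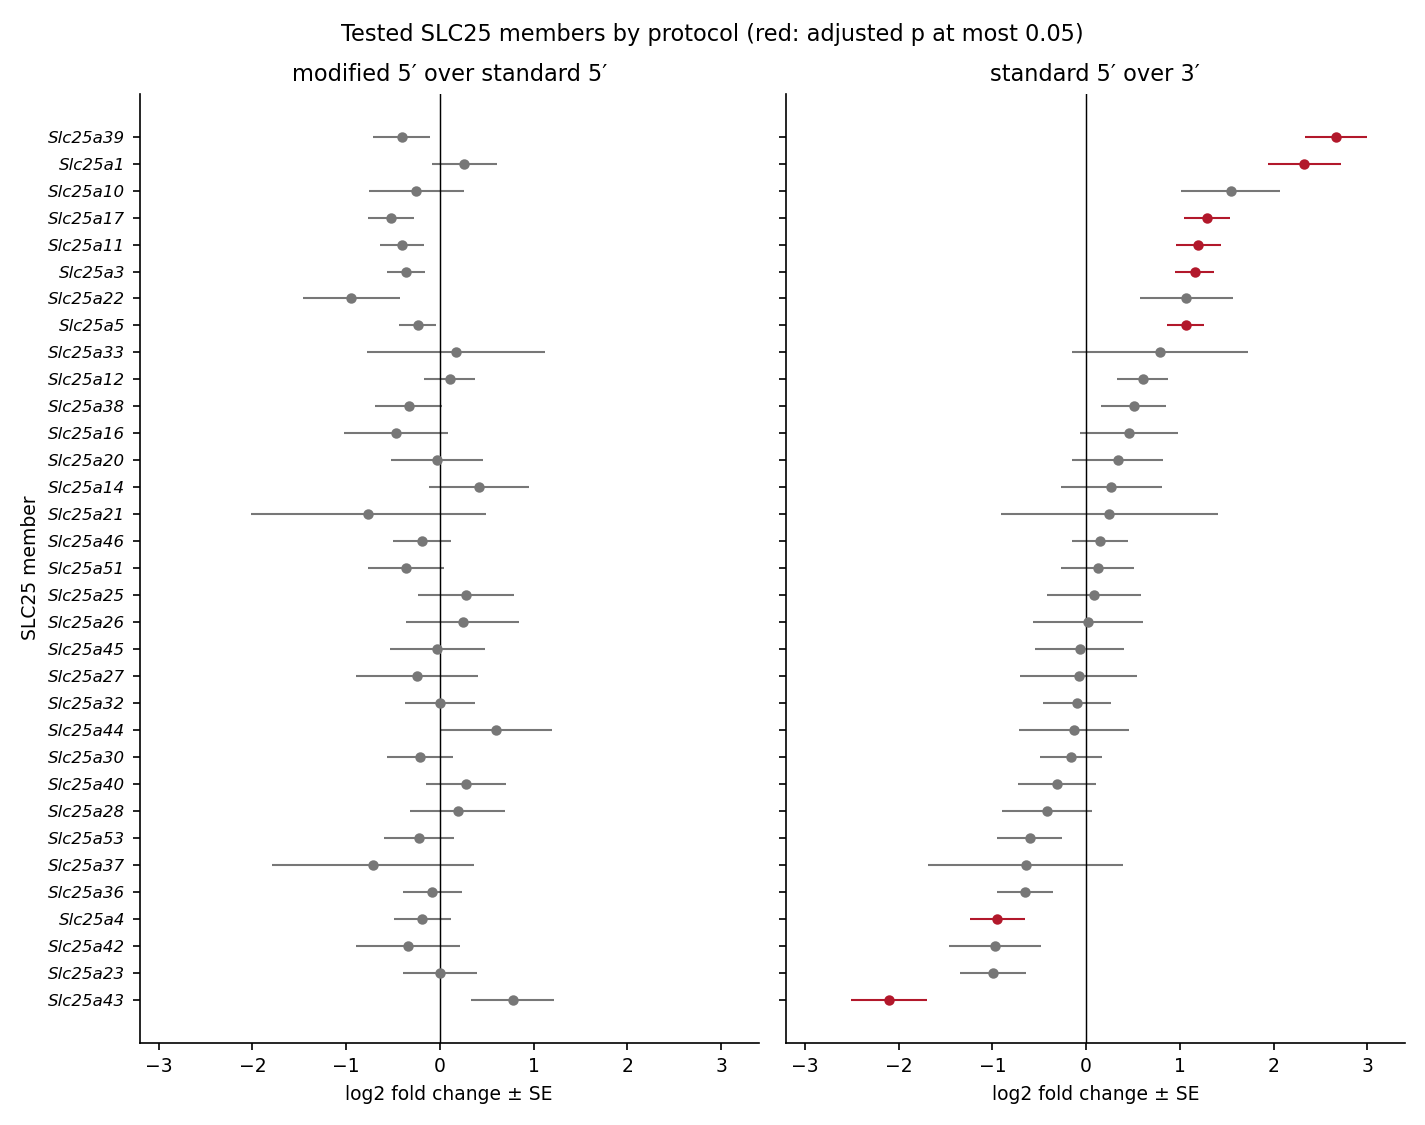
Log2 fold change ± SE of 33 tested members for modified over standard 5′ (left) and standard 5′ over 3′ (right), from the fit over 6 libraries. Red points passed an adjusted p of 0.05: none on the left, and 6 higher and 2 lower on the right.

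Modified over standard 5′ asked whether added dNTP and longer extension change carrier counts. No member passed (0 of 34), as no gene did (0 of 11546, 0%). No member had an unadjusted edgeR p under 0.05, and DESeq2 called 0 members. Within B cells 19 of 9262 genes passed (0.205%, with 0.184% higher and 0.0216% lower) and within T cells 2 of 7254 (0.0276%), none of them a member. The members' median log2 fold change was -0.19, and that of all genes was -0.01. Member values ran from -0.94 to 0.78, with 12 of 34 above 0. Slc25a3 measured 626 and 755 CPM in modified 5′, against 900.2 and 877 CPM in standard 5′. Slc25a5 measured 556 and 573 CPM in modified 5′, against 664 and 668 CPM in standard 5′. Slc25a11 was at 95.9 and 101 CPM in modified 5′, against 126 and 133 CPM in standard 5′. None of these 3 genes passed the test. Slc25a39 measured 116 and 84.8 CPM in modified 5′, against 175 and 103 CPM in standard 5′. Slc25a43 measured 11.1 and 17.8 CPM in modified 5′, against 9.22 and 8.47 CPM in standard 5′. Since 2 libraries stood in each group, a missed threshold does not show that the protocols give equal counts.

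The clearest class pattern was in erythroid cells, the red cell precursors that remained in the suspension. The 3 replicate 1 libraries had 43 (modified 5′), 54 (standard 5′) and 116 (3′) such cells and entered the test, with the library as a block. Replicate 2 libraries had 11, 9 and 6 cells in the same order of protocols and are given as values. Class levels are CPM with haemoglobin genes left out of the total, here called non-globin CPM, because haemoglobin took 41.1% to 45.5% of erythroid counts in replicate 1. Of 8 members tested, 5 were higher and 1 lower in erythroid than in B cells, against 55.4% of 3063 genes called, 22.7% higher and 32.7% lower. All 5 higher members passed the filter on low counts only through their erythroid level. Slc25a11, the lower one, passed it only through its B cell level. The calls were therefore shaped by the filter and are not separate evidence of a difference. The other 38 members were not tested, so the count describes these 8 and no more. Over the 6 libraries, gated erythroid cells held 36 to 1144 CPM of the 5 further myeloid markers, 0 to 1022 CPM of 6 NK markers and 0 to 777 CPM of the 4 further B markers. The highest of each was in modified 5′ replicate 2, which was not in the test.

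Slc25a37, the iron importer, was above Slc25a3 and Slc25a5 in erythroid cells of replicate 1 and below both in those of replicate 2. Its level was 1972, 2394 and 3676 non-globin CPM in erythroid cells of the modified 5′, standard 5′ and 3′ replicate 1 libraries, against 50.6, 27.9 and 118 in their B cells. The log2 fold change was 5.11 ± 0.43, and every erythroid value exceeded every B value. No p-value is given, since Slc25a37 passed the filter on low counts only through its erythroid level. In replicate 2 the levels were 166, 273 and 613 non-globin CPM in erythroid cells, against 31.8, 37.4 and 84.4 in B cells. Pooled over libraries, the ratio of erythroid to B cells was 38.3 in replicate 1 (95% exact interval 31.6 to 46.6, counting error only) and 6.07 in replicate 2 (3.62 to 9.66). Haemoglobin took 1.23% to 6.90% of the counts of the 26 erythroid cells of replicate 2.

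Slc25a38 and Slc25a39 were the other iron, haem and glutathione carriers tested, and both were higher. Both passed the filter on low counts only through their erythroid level, so p-values are not given. Slc25a38 measured 282, 280 and 252 non-globin CPM in erythroid cells of the modified 5′, standard 5′ and 3′ replicate 1 libraries, against 20.6, 34.9 and 15.3 in B cells (log2 fold change 3.50 ± 0.42). In replicate 2 it measured 166, 45.5 and 123 non-globin CPM in erythroid cells, on 4, 1 and 2 counts. Slc25a39 measured 939, 871 and 245 non-globin CPM in erythroid cells, against 61.7, 119 and 12.8 in B cells (3.396 ± 0.362). The lower 3′ level of this gene was present in both classes. In replicate 2 the pooled erythroid to B ratio was 3.94 (95% exact interval 1.54 to 8.44) for Slc25a38 and 3.95 (2.17 to 6.68) for Slc25a39. Slc25a28 had 4 counts in the 213 erythroid cells of replicate 1 and Slc25a40 also had 4, and neither entered the test.

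Slc25a51 and Slc25a21 carry other solutes. Slc25a51, the NAD+ importer, measured 470, 311 and 339 non-globin CPM in erythroid cells of the modified 5′, standard 5′ and 3′ replicate 1 libraries, against 26.9, 34.9 and 53.7 in B cells (log2 fold change 3.00 ± 0.39). Slc25a51 passed the filter on low counts only through its erythroid level, so no p-value is given. The pooled ratio of Slc25a51 in replicate 2 was 4.08 (95% exact interval 1.72 to 8.33). Slc25a21, the 2-oxodicarboxylate carrier of lysine and tryptophan breakdown, was all but absent outside erythroid cells. It had 49 counts in 213 erythroid cells and 1 count in 2686 B cells of replicate 1, a ratio of 358 per non-globin count (95% exact interval 61.3 to 14400). It too passed the filter on low counts only through its erythroid level, and with 1 B cell count its fitted value is not given. In replicate 2 it had 13 counts in 26 erythroid cells and 0 in 5679 B cells. Set against the 3 counts that a count of 0 allows over those B cells, it was at least 234-fold higher with its own counts taken as exact. The exact 95% lower limit of the ratio, which also covers the error of those counts, was 165. Levels ran from 166 to 282 non-globin CPM over the erythroid cells of all 6 libraries, and no count was found in T or myeloid cells. Exons of Slc25a21 overlap Pax9 on the other strand, which had 156 counts in kept cells and 9 in erythroid cells.

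The bulk carriers did not pass in replicate 1. Slc25a3 measured 916, 622 and 404 non-globin CPM in erythroid cells of the replicate 1 libraries, against 612, 977 and 469 in B cells, and did not pass (-0.33 ± 0.36). Slc25a5 measured 657, 529 and 353 in erythroid cells, against 522, 607 and 321 in B cells, and did not pass (-0.14 ± 0.36). In replicate 2 their pooled erythroid to B ratios were 1.89 (95% exact interval 1.50 to 2.36) and 2.70 (2.14 to 3.37), with intervals that overlap those of Slc25a38, Slc25a39 and Slc25a51 there. Slc25a11 was lower in erythroid cells, with 0, 62.2 and 36.0 non-globin CPM against 108, 112 and 65.2 in B cells (-1.53 ± 0.56). That call rested on 7 erythroid counts and was lost without modified 5′ replicate 1 (-0.95, edgeR adjusted p = 0.21), without standard 5′ replicate 1 (adjusted p = 0.0732) and with DESeq2 (adjusted p = 0.131).

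**Figure D3:**
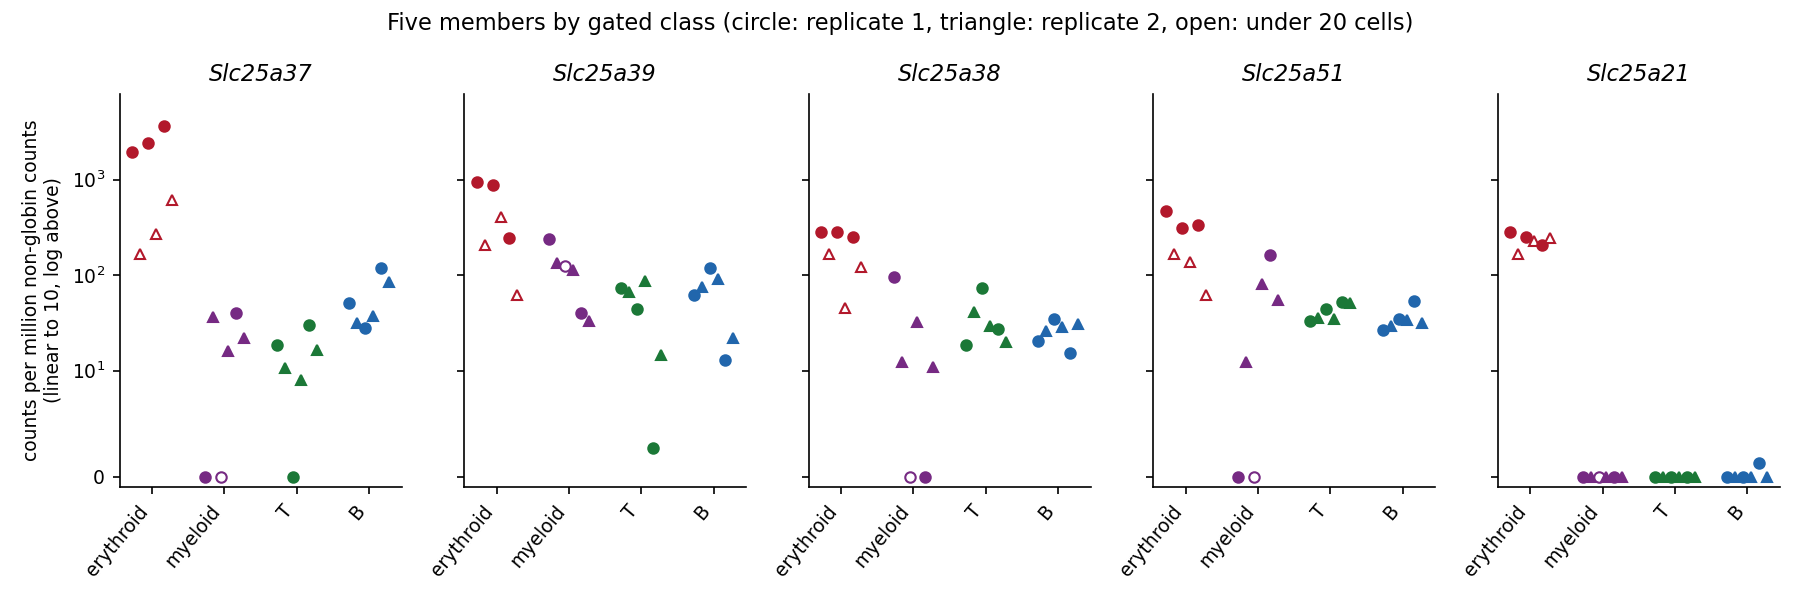
Non-globin CPM (linear to 10, log above) of the 5 members higher in erythroid than in B cells, in gated erythroid, myeloid, T and B cells. Each point is 1 library, in the order modified 5′, standard 5′, 3′ within a class, with circles for replicate 1, triangles for replicate 2 and open symbols for classes of under 20 cells. Slc25a21 has counts in all 6 erythroid samples and 1 count outside them, and Slc25a37 is higher in erythroid cells of replicate 1 than of replicate 2.

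Other genes of the pathway were counted from 3 lists, set against 22.7% of all genes higher and 32.7% lower in erythroid cells. Genes could pass the filter on low counts through their erythroid level alone, so these counts describe the tested genes only. Of 14 tested haem synthesis and iron genes, 13 were higher in erythroid cells and 0 lower. Among them were the transferrin receptor gene Tfrc (5.86 ± 0.46), Alad (5.43 ± 0.43) and Urod (5.14 ± 0.42), the last a pair of haem synthesis enzymes. Among 8 tested genes of other solute routes, 5 were higher and 0 lower, with Abcb10 (5.51 ± 0.44), an inner membrane transporter that binds mitoferrin-1, the largest. None of the 10 tested genes of the import machinery that inserts carriers passed in either direction.

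T over B cells compared the lymphocyte classes in all 6 libraries, with the library as a block. Of 19 members tested, 2 were higher and 3 lower in T cells, against 40.2% of 6955 genes called, 20.3% higher and 19.9% lower. The median log2 fold change was 0.09 for the members and -0.01 for all genes. With replicate 1 libraries alone 3 members passed, and with replicate 2 libraries alone 6.

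Slc25a37 had the largest difference. It measured 18.4, 0 and 30.0 non-globin CPM in T cells of the modified 5′, standard 5′ and 3′ replicate 1 libraries, and 10.7, 9.08 and 16.4 in those of replicate 2. The B cell values were 50.6, 27.9 and 118 in replicate 1 and 31.8, 37.4 and 84.4 in replicate 2. T cells were lower in 6 of 6 libraries, at -2.01 ± 0.22. No p-value is given, since Slc25a37 passed the filter on low counts only through its B cell level. Haemoglobin genes took at most 0.163% of the counts of T cells and 0.181% of those of B cells. With cells of over 1 haemoglobin count left out, the log2 fold change of Slc25a37 was -2.10 ± 0.22.

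Slc25a53, whose substrate is not settled, was lower in T cells in 5 of 6 libraries, with a range of 8.88 to 30.0 non-globin CPM in T cells against 14.2 to 51.1 in B cells (-0.84 ± 0.26, edgeR adjusted p = 0.00600). It did not pass with DESeq2 (adjusted p = 0.0952).

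Slc25a12 and Slc25a4 were higher in T cells. Slc25a12 measured 69.9, 73.1 and 46.4 non-globin CPM in T cells of the modified 5′, standard 5′ and 3′ replicate 1 libraries and 67.5, 56.3 and 54.5 in those of replicate 2. In B cells it measured 30.0, 27.9 and 25.6 in replicate 1 and 39.8, 43.4 and 34.9 in replicate 2. All T values lay above all B values in non-globin CPM, while the ranges overlapped in CPM scaled by TMM. T cells were higher in 6 of 6 libraries, at 0.67 ± 0.17 (edgeR adjusted p = 6.02e-04). Slc25a4 measured 84.6, 73.1 and 194 non-globin CPM in T cells of replicate 1 and 62.2, 59.96 and 240 in those of replicate 2, in the same order of protocols. Its B cell values were 36.4, 90.7 and 72.9 in replicate 1 and 45.1, 44.3 and 174 in replicate 2. T cells were higher in 5 of 6 libraries, standard 5′ replicate 1 being the exception, and the log2 fold change was 0.65 ± 0.13 (edgeR adjusted p = 2.59e-05). Slc25a5, the main ADP/ATP carrier of lymphocytes here, ranged from 371 to 717 non-globin CPM in T cells and from 321 to 607 in B cells and did not pass.

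Between T and B cells the 3 pathway lists are set against 20.3% of all genes higher and 19.9% lower. Haem synthesis and iron genes had 0 of 12 higher and 4 lower in T cells, led by the ferritin heavy chain gene Fth1 (-1.03 ± 0.07). Other solute routes had 3 of 15 higher and 3 lower, with Tspo (1.05 ± 0.07) and Sfxn3 (0.99 ± 0.22), a sideroflexin, among those higher. Carrier import had 3 of 14 higher and 0 lower, with Tomm20 (0.53 ± 0.11) the largest.

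Myeloid over B cells could be tested in 5 libraries, since standard 5′ replicate 1 had 15 gated myeloid cells. Of 15 members tested, 0 were higher and 3 lower (20%) in myeloid cells. Of 5652 genes, 30.7% were called, 14.7% higher and 16% lower, so the share of members lower was close to that of all genes. The median log2 fold change was 0.22 for the members and -0.20 for all genes. At an unadjusted edgeR p under 0.05 the number was also 3, and DESeq2 called 2, both lower. With totals outside haemoglobin genes in place of TMM, 1 member was higher, Slc25a5 (0.43 ± 0.16, edgeR adjusted p = 0.0208), and 2 were lower.

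Slc25a3 was lower in 5 of 5 libraries, with 283 to 735 non-globin CPM in myeloid cells, against 469 to 820 in B cells of those libraries (-0.56 ± 0.20, edgeR adjusted p = 0.0184). Slc25a37 was lower in 4 of 5 libraries (-1.32 ± 0.54), a call that was lost without any 1 of 4 libraries (adjusted p from 0.0865 to 0.315). Here too it passed the filter on low counts only through its B cell level. In the myeloid cells of these 5 libraries the 6 neutrophil markers summed to 591 to 21916 CPM, and over all 6 libraries the 4 further B markers to 4570 to 29117 CPM. The part of either in these values was not tested.

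**Figure D4:**
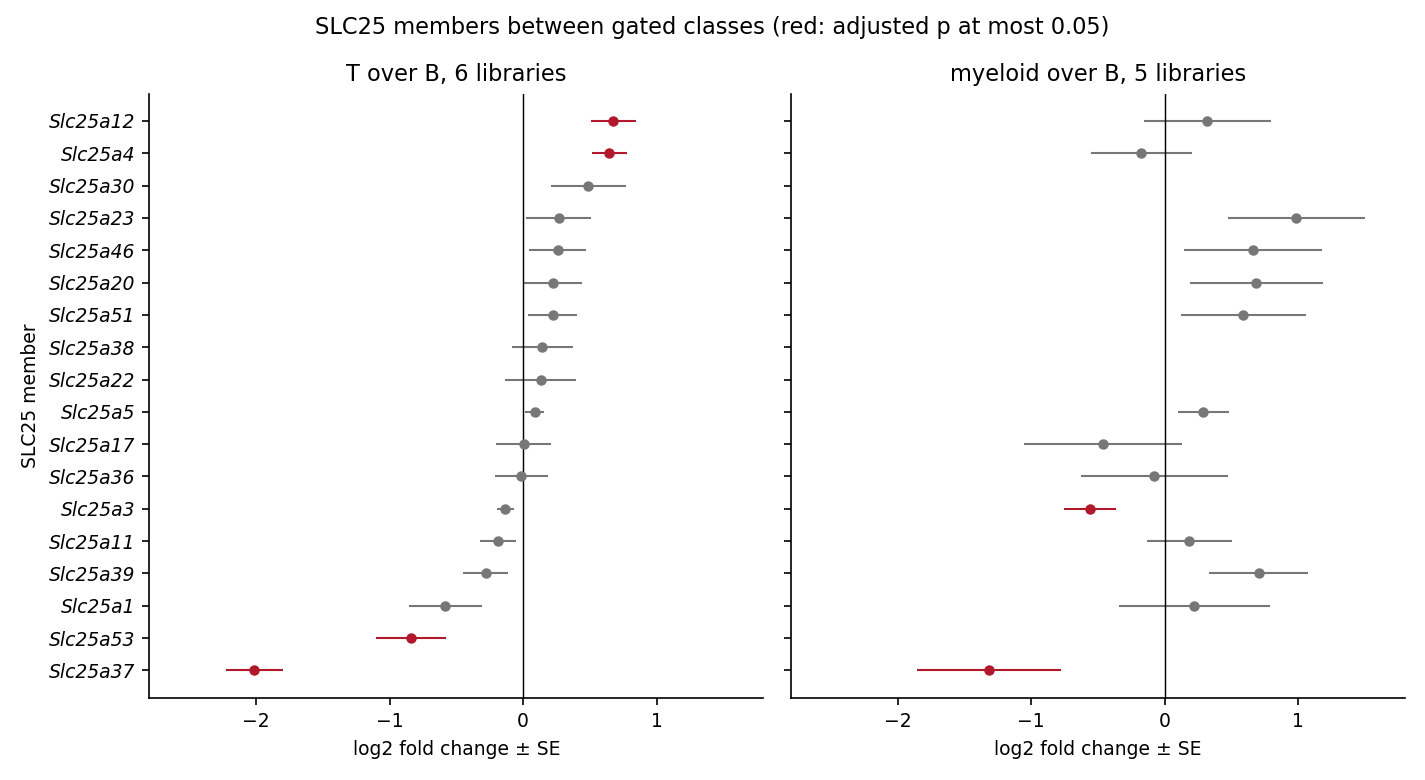
Log2 fold change ± SE of 18 SLC25 members in T over B cells (left, 6 libraries) and myeloid over B cells (right, 5 libraries). Rows without a point on the right did not pass the filter on low counts. Slc25a37 is red on the low side in both panels, where it passed the filter on low counts only through its B cell level. Slc25a12 and Slc25a4 passed on the high side in the left panel.

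Between myeloid and B cells the pathway lists are set against 14.7% of all genes higher and 16% lower. A gene could pass the filter on low counts through its myeloid level alone, so these counts describe the tested genes only. In myeloid cells 4 of 14 tested genes of other solute routes were higher and 0 lower. Among them were Mcub (8.49 ± 0.74), a subunit that dampens the calcium uniporter, and Tspo (1.16 ± 0.19). Of 11 tested haem synthesis and iron genes, 4 were higher, led by the haem-degrading Hmox1 (6.27 ± 0.31) and the ferritin light chain gene Ftl1 (1.90 ± 0.19), and 1 was lower. No carrier import gene of 13 passed.

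Between standard 5′ and 3′, the same lists are set against 12.5% of all genes higher and 10.8% lower. Carrier import had 6 of 16 genes higher and 0 lower in standard 5′, with Tomm40 (1.81 ± 0.24), the channel of the outer membrane, the largest. Other solute routes had 8 of 21 higher and 1 lower, including Ucp2 (1.66 ± 0.19), an uncoupling protein relative, and Vdac3 (-2.68 ± 0.31), a porin. Haem synthesis and iron had 2 of 18 higher and 0 lower, Iscu (2.26 ± 0.27), the iron-sulphur scaffold, and Ftl1 (1.27 ± 0.22). In modified over standard 5′ none of the 3 lists had a gene that passed over all kept cells.

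Named members lie on these positions of GRCm38 (mm10, GENCODE M21 gene models) and all are annotated as protein coding. Slc25a37 is at chr14:69241848-69285112, Slc25a39 at chr11:102402985-102407946, Slc25a38 at chr9:120110374-120124504 and Slc25a51 at chr4:45395923-45408766. Slc25a21 spans chr12:56712634-57197472. Slc25a3 is at chr10:91116574-91124059, Slc25a4 at chr8:46206797-46211284 and Slc25a5 at chrX:36795651-36798807. Slc25a43 lies at chrX:36743659-36777202 on the same strand as Slc25a5, and Slc25a53 at chrX:136981116-137038302. Slc25a1 is at chr16:17925223-17928219, Slc25a11 at chr11:70644196-70647479 and Slc25a12 at chr2:71271063-71367749. Slc25a17 is at chr15:81318911-81360812, Slc25a28 at chr19:43663801-43674881 and Slc25a40 at chr5:8422850-8454797.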

How the data were processed

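The authors deposited 1 table of whole-number counts for each library, with gene symbols against cell barcodes. Per the submitters' processing notes the build was mm10. The labels and notes do not state the aligner, annotation, use of strand or collapsing of molecular identifiers. Counts were summed over kept cells, or over gated cells of a class, per library. Sums were tested with edgeR 4.0.16 (R 4.3.3): quasi-likelihood test, TMM, filterByExpr and Benjamini-Hochberg adjustment over all genes at 0.05. Protocol fits held all 6 libraries, and class fits had the library as a block and needed 20 cells per class and library. The prior degrees of freedom were 6.75 for protocols, 69.2 for T over B cells and infinite for the other class fits. The gate limited doublets, and no doublet caller was run. Fits were tested on simulated counts. No library pair agreed within sampling noise (smallest chi-square per degree of freedom 3.26). Replicate numbers come from the labels, and libraries of 1 number share their extraction text. Their deviations correlated at 0.616, 0.507 and 0.421 over 6843 genes, so the number was read as a pairing. The main protocol fits did not use this pairing, and the fit with the replicate as a block was an alternative. Named members are the 6 with the highest mean level, all that passed in any comparison, and Slc25a28, Slc25a37, Slc25a38, Slc25a39 and Slc25a40. Some genes that enter the counts are not reported here by name. Members and lists were chosen with earlier results of these data known. Alternatives were RLE factors, totals outside haemoglobin genes, DESeq2 1.42.0, other filters and gates, the replicate block, single replicates and leaving out each library. Intervals and the floor of 3 counts cover counting error only.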

Additional observations from a re-analysis of the deposited data

Results flagged for a closer look

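Data outside the comparisons held counts of the family. Barcodes with at least 50 counts, of which haemoglobin genes took at least 50%, and fewer than 200 genes were left out of all tests. There were 749 of them, with 747 SLC25 counts. Slc25a37 had 354 of these counts, Slc25a39 had 321 and Slc25a51 had 55. The level of each per non-globin count was above that in gated B cells of the same library in 6 of 6 libraries. It ran from 1553 to 14038 non-globin CPM for Slc25a37, from 2329 to 7208 for Slc25a39 and from 964 to 1553 for Slc25a51. In the replicate 2 libraries these values rest on 2 to 10 counts for Slc25a37, 3 to 10 for Slc25a39 and 2 in each for Slc25a51, so they carry a wide counting error. Slc25a21 had 3 counts there and Slc25a38 had 2, although both were higher in gated erythroid cells than in B cells. Slc25a5 had 4 counts and Slc25a3 had 2.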

How the results depend on the processing

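Counts of called members kept within 1.5 times of their value except as follows. For standard 5′ over 3′ (8 members), leaving out each library in turn gave 1 to 9, the lowest without standard 5′ replicate 2, and leaving out gated erythroid cells, a setting chosen after seeing the data, gave 13. With the replicate block 12 passed, the 8 and others that included Slc25a10, Slc25a23 and Slc25a37, and the block changed no other call. For T over B cells (5) no filter on low counts gave 10 and replicate 1 libraries alone gave 3. For myeloid over B cells (3), replicate 1 alone gave 1, replicate 2 alone gave 1, and a minimum of 5 cells, chosen after seeing the data, gave 1 of 4 tested. Erythroid over B cells gave 6 without each library in turn, 9 without the filter, and 6 with that minimum and all 6 libraries. The cause of these shifts was not tested. The erythroid test in replicate 2 alone was not run, since its libraries had 6 to 11 cells. Modified over standard 5′ gave 0 under every alternative run. Of the values under alternatives of members that passed, 259 stayed on their side of the threshold and 33 no longer passed, 16 of them in standard 5′ over 3′, 12 in myeloid, 4 in erythroid and 1 in T over B cells, and none changed sign. Members that had not passed did so 42 times under alternatives, 20 of them in standard 5′ over 3′, 12 in T, 8 in erythroid and 2 in myeloid over B cells. Other scalings moved the median of all genes in erythroid over B cells by 0.20 (totals outside haemoglobin genes), -0.13 (RLE) and -0.23 (DESeq2), and in myeloid over B cells by 0.10, -0.11 and -0.17. The myeloid and erythroid values rest on 355 and 239 cells.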
